A study of Homo sapiens with 16 samples.

Results

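Homologous recombination rebuilds a broken chromosome from an intact copy, and the DNA damage response detects the lesion, signals it and brings in the repair enzymes. The mRNAs described here encode 9 proteins of these pathways: the damage kinases ATM and ATR, the recombination mediators BRCA1, BRCA2 and PALB2, the recombinase paralog RAD51C, and the Fanconi anemia proteins FANCA, FANCD2 and FANCM, which act on crosslinked DNA and stalled replication forks. They were chosen by gene name, with earlier results of these data known. All 9 had a row in both tables analysed, and each table listed 16324 genes. ALKBH5 is a nuclear demethylase that erases m6A, a methyl mark of RNA, and RBM33 is an RNA-binding protein. RNA that copurifies with a tagged protein can be sequenced beside the input RNA, an assay called RIP-seq, which measures association with the protein and not binding at a site.

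The cells were labelled UM-SCC-1, an established squamous carcinoma line of the head and neck, and stably carried lentiviral Strep-ALKBH5, Strep-RBM33 or the vector Strep-Vec-1 after puromycin selection. The groups were the StrepTactin pull-downs of ALKBH5 (3 libraries), RBM33 (2) and vector (3), and the matching untreated inputs of ALKBH5 (3), RBM33 (2) and vector (3), 16 libraries in all. The promoter that drives the transgenes and the number of clones are not stated in the sources used here, and the cells keep their own copy of each bait gene. Both comparisons were named siCtrl, a treatment that no sample label gives to these libraries.

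The values are the authors' own comparisons, 1 table for each bait, so no value per library, no library depth and no standard deviation can be given. Neither table names the groups it compared or the direction of its ratio. Signs are given as in the tables, and positive is not read as more RNA in the pull-down. Whether replicates were separate cultures is not stated, so the p-values may cover only technical spread. Of 10 mRNAs typical of squamous epithelium, 8 (KRT5, KRT14, KRT6A, KRT17, TP63, SFN, DSG3 and PKP1) had no row among the genes analysed here. The other members of that list, ITGB4 and DSP, averaged 1.02 and 6.86 log2 CPM (counts scaled to library size) in the authors' deposited ALKBH5 table. The neurofilament mRNAs NEFL and NEFM, which are known from neurons and from embryonic kidney lines, averaged 8.10 and 7.72 log2 CPM in the same authors' deposited table. These markers go against the squamous label, and the material is called cells labelled UM-SCC-1 throughout.

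Most of the damage response mRNAs stood on the positive side of both tables. At an adjusted p under 0.05, the authors' deposited ALKBH5 table called 7 of the 9 positive and 0 negative, where 30.5% of all genes were positive and 29.1% negative. For RBM33, the authors' deposited table called 7 of the 9 positive and 1 negative, against 24.0% and 27.0% of all genes. Because the 9 were chosen with earlier results of these data known, these shares are a description and the set was not tested. The median log2 fold change of the 9 was 0.70 in the authors' deposited ALKBH5 table and 1.10 in that for RBM33, where the medians of all genes were 0.03 and -0.02. Their means were 1.14 for ALKBH5 and 0.95 for RBM33, so which table stood higher depended on the measure. The positive mRNAs were the same 7 in both of the authors' deposited tables: ATM, ATR, FANCA, FANCM, BRCA2, FANCD2 and BRCA1. PALB2 was called in neither, and RAD51C was the negative call of the RBM33 table. Whether the tables share libraries is not stated, so they may not be independent measurements.

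**Figure D1:**
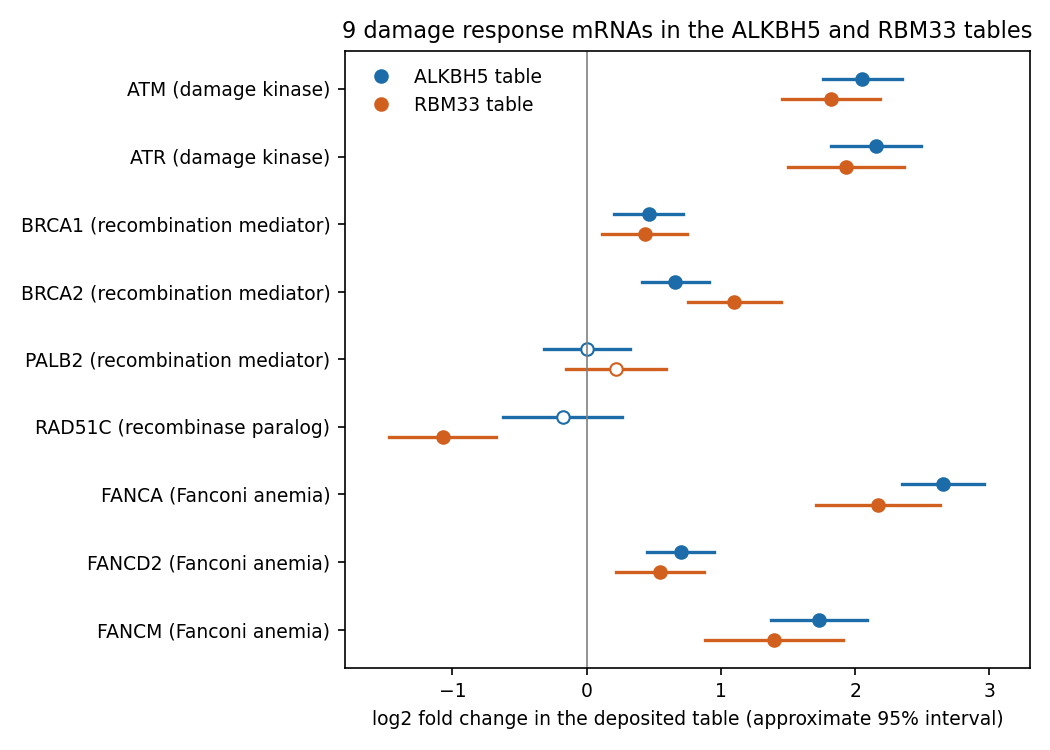
Log2 fold change (horizontal axis) of each of the 9 mRNAs in the authors' deposited tables for ALKBH5 (blue) and RBM33 (orange), with approximate 95% intervals as lines; filled points have an adjusted p under 0.05. ATM, ATR, FANCA and FANCM lie furthest to the right for ALKBH5, and RAD51C is the mRNA whose intervals do not overlap between the tables.

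The tables hold an F statistic and a p-value per gene, from which an approximate standard error and 95% interval were worked out. For the 9 mRNAs the approximate standard errors ran from 0.12 to 0.20 log2 units in the ALKBH5 table and from 0.14 to 0.23 in the RBM33 table. All p-values below are those of the authors' test, edgeR per the submitters' processing notes, adjusted over all genes of the table.

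ATM and ATR are large kinases of the same family: ATM responds to double-strand breaks, and ATR, with its partner ATRIP, to single-stranded DNA at stalled forks. Both had high positive values. ATM (ENSG00000149311, hg38 chromosome 11, 108222832 to 108369102, plus strand) had a log2 fold change of 2.05 (approximate interval 1.76 to 2.35, adjusted p = 7.85e-08) in the authors' deposited ALKBH5 table. Its value in the authors' deposited RBM33 table was 1.82 (1.46 to 2.18, adjusted p = 1.03e-05). ATR (ENSG00000175054, chromosome 3, 142449007 to 142578733, minus strand) had 2.16 (1.82 to 2.49, adjusted p = 1.5e-07) for ALKBH5 and 1.93 (1.50 to 2.37, adjusted p = 1.84e-05) for RBM33 across the authors' deposited tables. The kinases' intervals overlapped in each table, so their order is not resolved. These genes have the longest listed lengths of the 9, 23695 bases for ATM and 27234 for ATR. Of the ATM gene span, 41.4% is also covered by C11orf65, read from the opposite strand. C11orf65 had a low average of 1.45 log2 CPM against 6.54 for ATM in the authors' deposited ALKBH5 table.

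BRCA1, a ubiquitin ligase that promotes the processing of broken ends, recruits BRCA2 through PALB2, and BRCA2 loads the recombinase on single-stranded DNA. By value the mRNAs of this chain ranked BRCA2, BRCA1 and PALB2 in both tables, but not every step of this order was resolved. BRCA2 (ENSG00000139618, chromosome 13, 32315086 to 32400268, plus strand) had the highest, 0.66 (0.41 to 0.91, adjusted p = 0.000258) in the authors' deposited ALKBH5 table. It stood at 1.10 (0.75 to 1.45, adjusted p = 0.000158) in the authors' deposited RBM33 table. BRCA1 (ENSG00000012048, chromosome 17, 43044295 to 43170245, minus strand) had 0.46 (0.21 to 0.72, adjusted p = 0.00425) for ALKBH5 and 0.43 (0.12 to 0.75, adjusted p = 0.0259) for RBM33 across the authors' deposited tables. The RBM33 call of BRCA1 was lost at a threshold of 0.01. PALB2 (ENSG00000083093, chromosome 16, 23603160 to 23641310, minus strand), which bridges them, stood at 0.00 (-0.32 to 0.33, adjusted p = 0.982) and 0.22 (-0.15 to 0.59, adjusted p = 0.307) in the authors' deposited ALKBH5 and RBM33 tables. These intervals leave room for a change of up to 0.33 and 0.59 log2 units. In the RBM33 table the interval of BRCA2 lay above those of BRCA1 and PALB2, whereas in the ALKBH5 table that of BRCA2 overlapped that of BRCA1.

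BRCA1 shares its span with other transcripts. NBR2, a long noncoding RNA read from the opposite strand, overlaps 22.3% of the span and had a value of 3.62 (adjusted p = 5.53e-06) in the authors' deposited ALKBH5 table. AC060780.1, a long noncoding RNA on the same strand as BRCA1, overlaps 17.4% of it and had 2.66 (adjusted p = 1.05e-06) in the same authors' deposited table. For RBM33 these RNAs had 2.55 (adjusted p = 0.000584) and 2.64 (adjusted p = 1.63e-05) in the authors' deposited table. Both lay well above BRCA1 itself, and their average abundances of 2.67 and 4.06 log2 CPM were below its 6.84 in the authors' deposited ALKBH5 table. The strand setting of the counting is not given, and AC060780.1 is on the strand of BRCA1 under any setting. The part of shared reads in the BRCA1 value was not tested.

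RAD51C, a paralog of the recombinase that helps its filaments form, was the exception of the group. RAD51C (ENSG00000108384, chromosome 17, 58692573 to 58735611, plus strand) stood at -0.18 (-0.62 to 0.26, adjusted p = 0.474) in the authors' deposited ALKBH5 table. In the authors' deposited RBM33 table it was negative at -1.07 (-1.47 to -0.68, adjusted p = 0.000488). It was the 1 mRNA of the 9 whose approximate intervals did not overlap between the tables, which held for 1.53% of all 16324 genes. The other 8 had overlapping intervals. The difference between the tables was not tested, as neither gives values for single libraries.

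The Fanconi anemia pathway opens with FANCM, a DNA translocase that anchors the core complex at the lesion. The core complex, of which FANCA is a subunit, adds ubiquitin to FANCD2, and modified FANCD2 brings in nucleases. FANCA had the highest value of the 9 in both tables, but its interval overlapped that of ATR in each. FANCA (ENSG00000187741, chromosome 16, 89737549 to 89816657, minus strand) stood at 2.65 (2.35 to 2.96, adjusted p = 1.41e-08) for ALKBH5 and 2.17 (1.71 to 2.63, adjusted p = 1.4e-05) for RBM33 across the authors' deposited tables. FANCM (ENSG00000187790, chromosome 14, 45135930 to 45200890, plus strand) had 1.73 (1.37 to 2.08, adjusted p = 1.33e-06) and 1.40 (0.88 to 1.91, adjusted p = 0.000474) in the authors' deposited ALKBH5 and RBM33 tables. FANCD2 (ENSG00000144554, chromosome 3, 10026414 to 10101932, plus strand) was lower, at 0.70 (0.45 to 0.95, adjusted p = 0.000163) for ALKBH5 and 0.55 (0.22 to 0.87, adjusted p = 0.00965) for RBM33 across the authors' deposited tables. Its interval lay below those of FANCA and FANCM in both tables. The end of FANCA overlaps ZNF276, a zinc finger gene on the opposite strand, over 4.27% of the FANCA span. ZNF276 was positive, with 2.22 for ALKBH5 (adjusted p = 5.24e-08) and 1.63 for RBM33 (adjusted p = 0.00011), in the authors' deposited tables, so both partners of this overlap were positive.

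By value in the ALKBH5 table, the 9 mRNAs fell in the order FANCA, ATR, ATM, FANCM, FANCD2, BRCA2, BRCA1, PALB2 and RAD51C. FANCA and ATR, ATR and ATM, and ATM and FANCM overlapped in their intervals. FANCM and FANCD2 did not, so 4 mRNAs stood at 1.73 or more and the other 5 at 0.70 or less in the authors' deposited ALKBH5 table. Below that gap, FANCD2, BRCA2 and BRCA1 overlapped, as did BRCA1 with PALB2 and PALB2 with RAD51C. In the RBM33 table the order was FANCA, ATR, ATM, FANCM, BRCA2, FANCD2, BRCA1, PALB2 and RAD51C. The intervals of FANCA, ATR, ATM and FANCM overlapped in that table, as did those of FANCD2, BRCA1 and PALB2. There BRCA2, at 1.10 in the authors' deposited table, filled the gap, and its interval overlapped those of FANCM and FANCD2. RAD51C stood apart at the lower end, its interval below that of PALB2. For 7 of the 9 the RBM33 value was the smaller one, and BRCA2 and PALB2 were the exceptions. The share of all genes with a smaller RBM33 value was not worked out. Apart from RAD51C, the intervals of each mRNA overlapped between the tables, so this tally does not resolve a difference.

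Abundance did not follow this order. Average log2 CPM of the 9 mRNAs ran from 4.90 to 6.90 in the authors' deposited ALKBH5 table and from 5.08 to 7.22 in that for RBM33, where the medians of all genes were 4.05 in both. Per kilobase of listed length, FANCD2 averaged 14.2 CPM, BRCA1 12.3 and FANCA 11.5, computed from the authors' deposited ALKBH5 table. ATR averaged 2.24, FANCM 3.53 and ATM 3.93 CPM per kilobase on the same scale of the authors' deposited table. The high fold changes of ATM, ATR and FANCM thus belonged to the mRNAs with the lowest levels per length of the 9, and that of FANCA to one of the highest. The listed length need not be that of 1 mRNA, so these levels per length are approximate.

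Fold changes in both tables followed listed gene length, and the damage response genes are long. Of the 13210 protein-coding genes, sorted into 5 length classes of 2642 genes, ATM, ATR, FANCA, BRCA2 and BRCA1 fell in the longest class (from 8650 bases), FANCD2 and FANCM in the class before it (from 6132 bases), and PALB2 and RAD51C in the middle class (from 4445 bases). The median log2 fold change of the longest class was 0.54 in both of the authors' deposited tables. In that class 52.6% of genes were positive for ALKBH5 and 46.7% for RBM33 across the authors' deposited tables, against 35.9% and 27.6% of the class before it and 25.4% and 18.5% of the middle class.

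Set against their own length class, the 9 mRNAs split. FANCA exceeded 96.6% of the genes of its class in the authors' deposited ALKBH5 table and 95.8% in that for RBM33. ATR exceeded 93.3% and 92.8%, and ATM 92.3% and 91.0%, of the same class in the authors' deposited ALKBH5 and RBM33 tables. FANCM exceeded 92.1% and 89.2% of its own class in these authors' deposited tables. FANCD2 was above 69.9% and 66.1% of that class in the authors' deposited ALKBH5 and RBM33 tables. BRCA1, although called positive in both, lay near the middle of its class, above 46.6% of genes for ALKBH5 and 44.7% for RBM33 across the authors' deposited tables. BRCA2 exceeded 55.3% of the class for ALKBH5 and 71.8% for RBM33 across the authors' deposited tables. PALB2 (53.3% and 63.5%) was also near the middle of its class, and RAD51C exceeded 44.8% for ALKBH5 but only 13.4% for RBM33 across the authors' deposited tables. Relative to the median of each gene's class, the median of the 9 was 0.52 in the authors' deposited ALKBH5 table and 0.56 in that for RBM33, against 0.70 and 1.10 without this step.

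**Figure D2:**
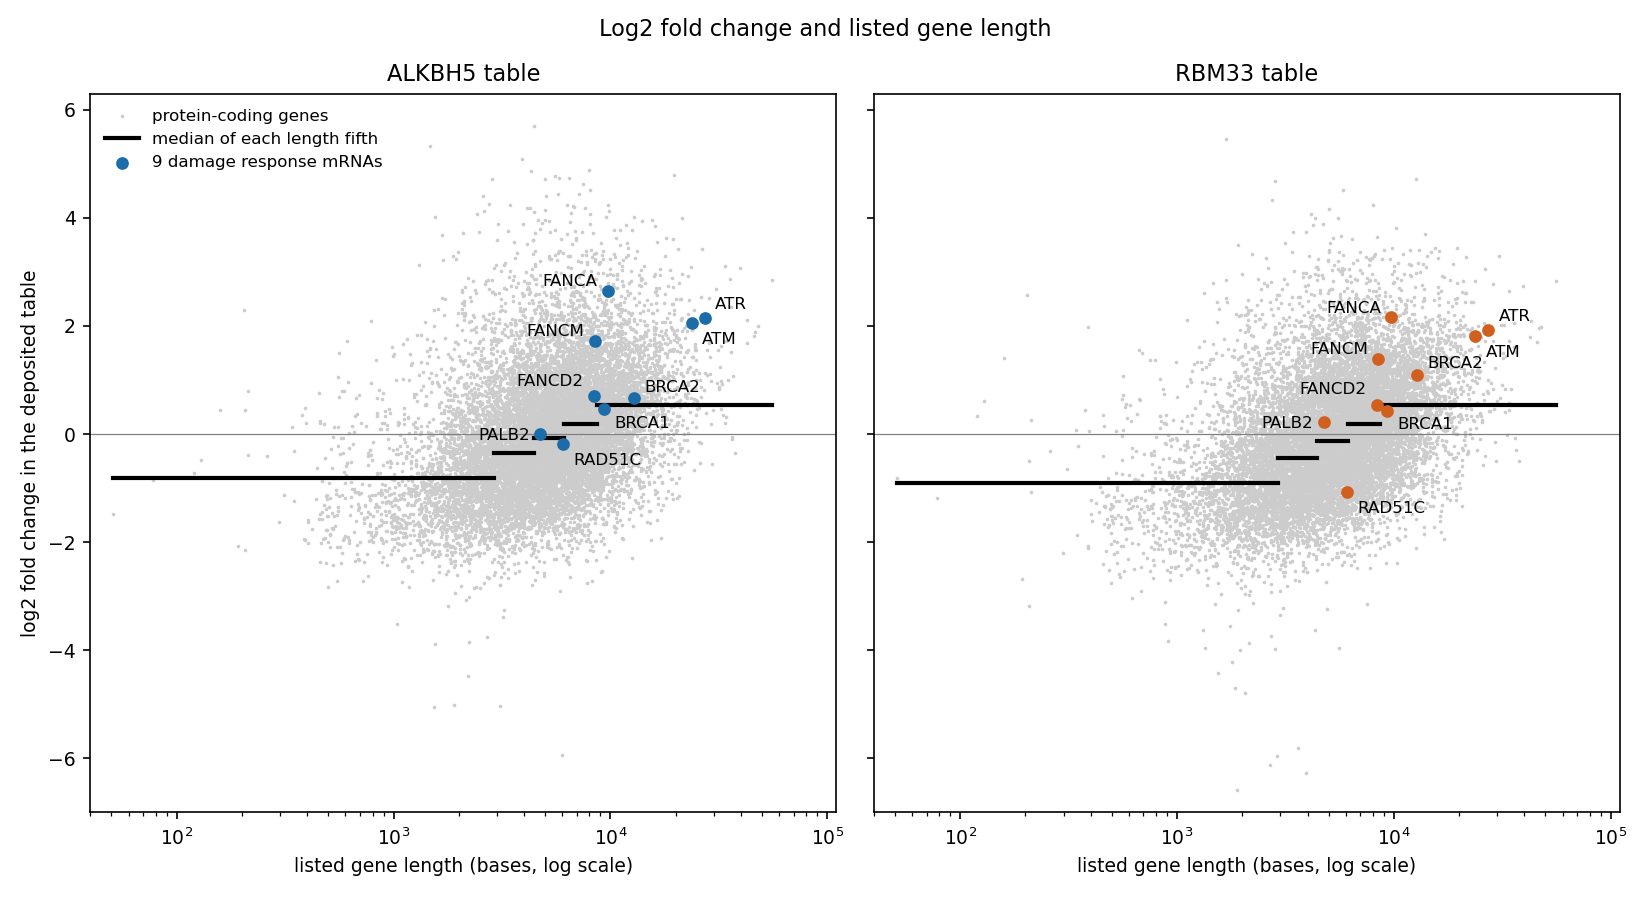
Log2 fold change (vertical axis) against listed gene length in bases (horizontal axis, log scale) for protein-coding genes (grey) and the 9 mRNAs (coloured), in the authors' deposited ALKBH5 (left) and RBM33 (right) tables; black bars are the medians of 5 length classes. FANCA, ATR, ATM and FANCM lie far above the bar of their class, whereas BRCA1 lies close to it.

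Other mRNAs of the repair pathways were called in both directions, at shares near those of all genes. Of 152 further repair genes in 8 lists, the authors' deposited ALKBH5 table held 55 positive and 54 negative calls (median -0.09), or 36.2% and 35.5% against 30.5% and 29.1% of all genes. The authors' deposited RBM33 table held 40 and 49 (median -0.05), or 26.3% and 32.2% against 24.0% and 27.0%. Homologous recombination partners, the largest list with 36 genes, had the most positive calls. The authors' deposited ALKBH5 table held 19 positive (52.8%) and 10 negative calls among them (list median 0.59). Its RBM33 counterpart held 15 positive (41.7%) and 8 negative (list median 0.31). The ALKBH5 share lay close to the 50% of non-homologous end joining (6 of 12) and of mismatch repair (3 of 6). Those smaller lists each had 33.3% positive in the authors' deposited RBM33 table. RAD51B, another recombinase paralog, stood at 2.98 and 2.13, and RPA3, the smallest subunit of the single-strand binding protein RPA, at -2.58 and -2.82 in the authors' deposited ALKBH5 and RBM33 tables. Fanconi anemia partners had 7 positive and 7 negative of 19, or 36.8% each, in the authors' deposited ALKBH5 table. For RBM33 these were 5 and 5, or 26.3% each, in the authors' deposited table. FANCL, the ubiquitin ligase of the core complex, had 1.97 for ALKBH5, and SLX4, a nuclease scaffold, 2.25 for RBM33, whereas CENPS had -1.66 and -1.86 in the authors' deposited tables.

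Checkpoint kinases and their partners had 5 positive and 5 negative of 17 in each of the authors' deposited tables, 29.4% in each direction and so near the shares of all genes. WEE1, a kinase that holds back mitosis, had 1.56 and CDC25A, a phosphatase that drives the cell cycle, -0.90 in the authors' deposited ALKBH5 table. RAD9A at 1.21 and RAD1 at -1.14, subunits of the same sliding clamp, marked the ends of that list in the authors' deposited RBM33 table. Break sensing and chromatin response mRNAs had 11 negative (47.8%) and 6 positive (26.1%) of 23 in the authors' deposited ALKBH5 table. For RBM33 these were 9 (39.1%) and 3 (13.0%) in the authors' deposited table. Of all protein-coding genes, the authors' deposited ALKBH5 table called 33.3% negative and 27.5% positive. Its RBM33 counterpart called 31.2% negative and 21.5% positive. MDC1, an adaptor for phosphorylated histone H2AX, had 1.44 and 1.58, and MAD2L2, a subunit of the shieldin complex, -1.72 and -1.98 in the authors' deposited ALKBH5 and RBM33 tables.

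Non-homologous end joining had 6 positive (50%) and 3 negative (25%) of 12 in the authors' deposited ALKBH5 table. For RBM33 these were 4 and 4, or 33.3% each, in the authors' deposited table. The most negative mRNA of this list was XRCC6, the Ku70 subunit that binds DNA ends. It stood at -1.37 and -1.08 in the authors' deposited ALKBH5 and RBM33 tables. Mismatch repair had 3 positive (50%) and 1 negative (16.7%) of 6 genes in the authors' deposited ALKBH5 table. For RBM33 these were 2 (33.3%) and 1 (16.7%) in the authors' deposited table. The highest called gene was MLH3 at 2.04 for ALKBH5 and MSH3 at 0.65 for RBM33 across the authors' deposited tables. For RBM33 the authors' deposited table gave MLH3 0.75 without a call (adjusted p = 0.257). Nucleotide excision repair had 5 positive (26.3%) and 8 negative (42.1%) of 19 in the authors' deposited ALKBH5 table. For RBM33 these were 3 (15.8%) and 8 (42.1%) in the authors' deposited table. UVSSA, a factor of transcription-coupled repair, stood at 3.05 and 2.00 in the authors' deposited ALKBH5 and RBM33 tables, while CETN2 had -2.08 for ALKBH5 and XPA, a damage verification factor, -1.72 for RBM33. Base excision repair had 4 positive (20%) and 9 negative (45%) of 20 in the authors' deposited ALKBH5 table. For RBM33 these were 3 (15%) and 9 (45%) in the authors' deposited table. NEIL1, a glycosylase, stood at 2.64 and 2.14 for ALKBH5 and RBM33, APEX1, an endonuclease, at -1.23 for ALKBH5 and POLB, a polymerase, at -1.36 for RBM33 across the authors' deposited tables.

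**Figure D3:**
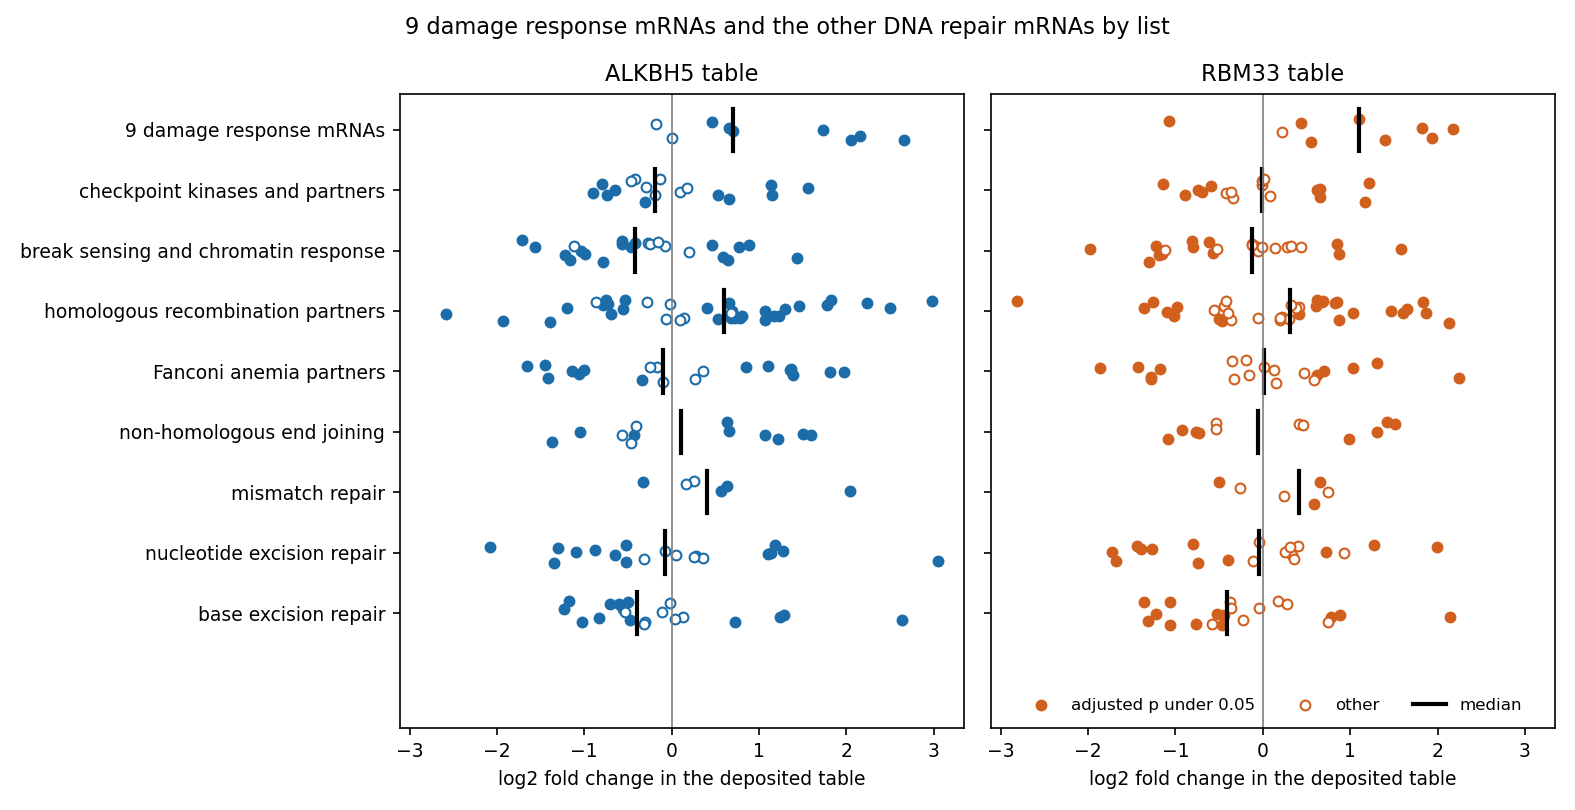
Log2 fold change (horizontal axis) of the 9 mRNAs and of the other repair mRNAs by list, in the authors' deposited ALKBH5 (left) and RBM33 (right) tables; filled points have an adjusted p under 0.05 and bars are medians. Every list of other repair mRNAs has called genes on both sides of 0.

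Several proteins that work as one complex had mRNAs on opposite sides. Partner proteins were taken from textbook knowledge and set beside the 9 after the values were known, so these pairs are a description. The pairs were not matched for listed length, which the fold changes followed. The part of length in these contrasts was not tested. BARD1, with which BRCA1 forms its ubiquitin ligase, was negative at -0.69 (adjusted p = 0.00212) and -0.47 (adjusted p = 0.0444) in the authors' deposited ALKBH5 and RBM33 tables, opposite in sign to BRCA1. RBBP8, a resection factor bound by BRCA1, was negative at -1.19 and -1.02, and the BRCA1-bound helicase BRIP1 was positive at 1.07 and 0.85 in the authors' deposited ALKBH5 and RBM33 tables. ATRIP followed ATR in sign, at 0.65 (adjusted p = 0.0147) and 0.66 (adjusted p = 0.0489), whereas CHEK1, the kinase that ATR activates, was negative at -0.65 and -0.69 in the authors' deposited tables. Of the activators of ATR, ETAA1 was negative at -0.80 and -0.89, and TOPBP1 was not called at -0.19 and -0.01 in the authors' deposited ALKBH5 and RBM33 tables. Of the complex that brings ATM to breaks, MRE11 and RAD50 were positive at 0.77 and 0.47 and NBN negative at -1.22 in the authors' deposited ALKBH5 table. In the authors' deposited RBM33 table NBN was negative at -1.19, and MRE11 and RAD50 were not called at 0.27 and 0.14.

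The recombinase paralogs differed among themselves. RAD51B, RAD51D, XRCC2 and XRCC3 were all positive for ALKBH5, the last 3 at 0.67, 1.07 and 0.66 in the authors' deposited table. With RAD51C, 3 of these 5 genes were called positive and 1 negative for RBM33, and XRCC3 was not called at 0.32 in that authors' deposited table. SEM1, a small acidic protein bound by BRCA2, was negative at -1.93 and -1.26 in the authors' deposited ALKBH5 and RBM33 tables, opposite in sign to BRCA2.

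The Fanconi anemia pairs gave a like picture. FANCG, a core complex subunit with FANCA, was positive at 1.35 (adjusted p = 0.000334) for ALKBH5 and not called at 0.59 (adjusted p = 0.153) for RBM33 across the authors' deposited tables. FANCI, the partner of FANCD2, stood at 0.26 (adjusted p = 0.0669) and 0.15 (adjusted p = 0.45) in the authors' deposited ALKBH5 and RBM33 tables. UBE2T and USP1, which add and remove the ubiquitin of FANCD2, were negative, at -1.14 and -1.46 for ALKBH5 and at -1.28 and -1.28 for RBM33 across the authors' deposited tables. CENPX, like CENPS a small histone fold partner of FANCM, was negative at -1.41 and -1.42 in the authors' deposited ALKBH5 and RBM33 tables. CENPX, UBE2T and CENPS have listed lengths of 1531, 1652 and 1748 bases, in the shortest length class (up to 2919 bases). In that class 53.6% of genes were negative and 8.0% positive for ALKBH5, and 52.3% and 5.0% for RBM33. The other negative partners had listed lengths from 3869 bases (USP1) to 11490 bases (SEM1). A listed length need not be that of 1 mRNA, and the part of length was not tested. Among the 25 partners, the authors' deposited ALKBH5 table called 9 positive and 11 negative, and the one for RBM33 called 5 and 11. Of all genes, the authors' deposited ALKBH5 table called 30.5% positive and 29.1% negative, while its RBM33 counterpart called 24.0% positive and 27.0% negative.

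**Figure D4:**
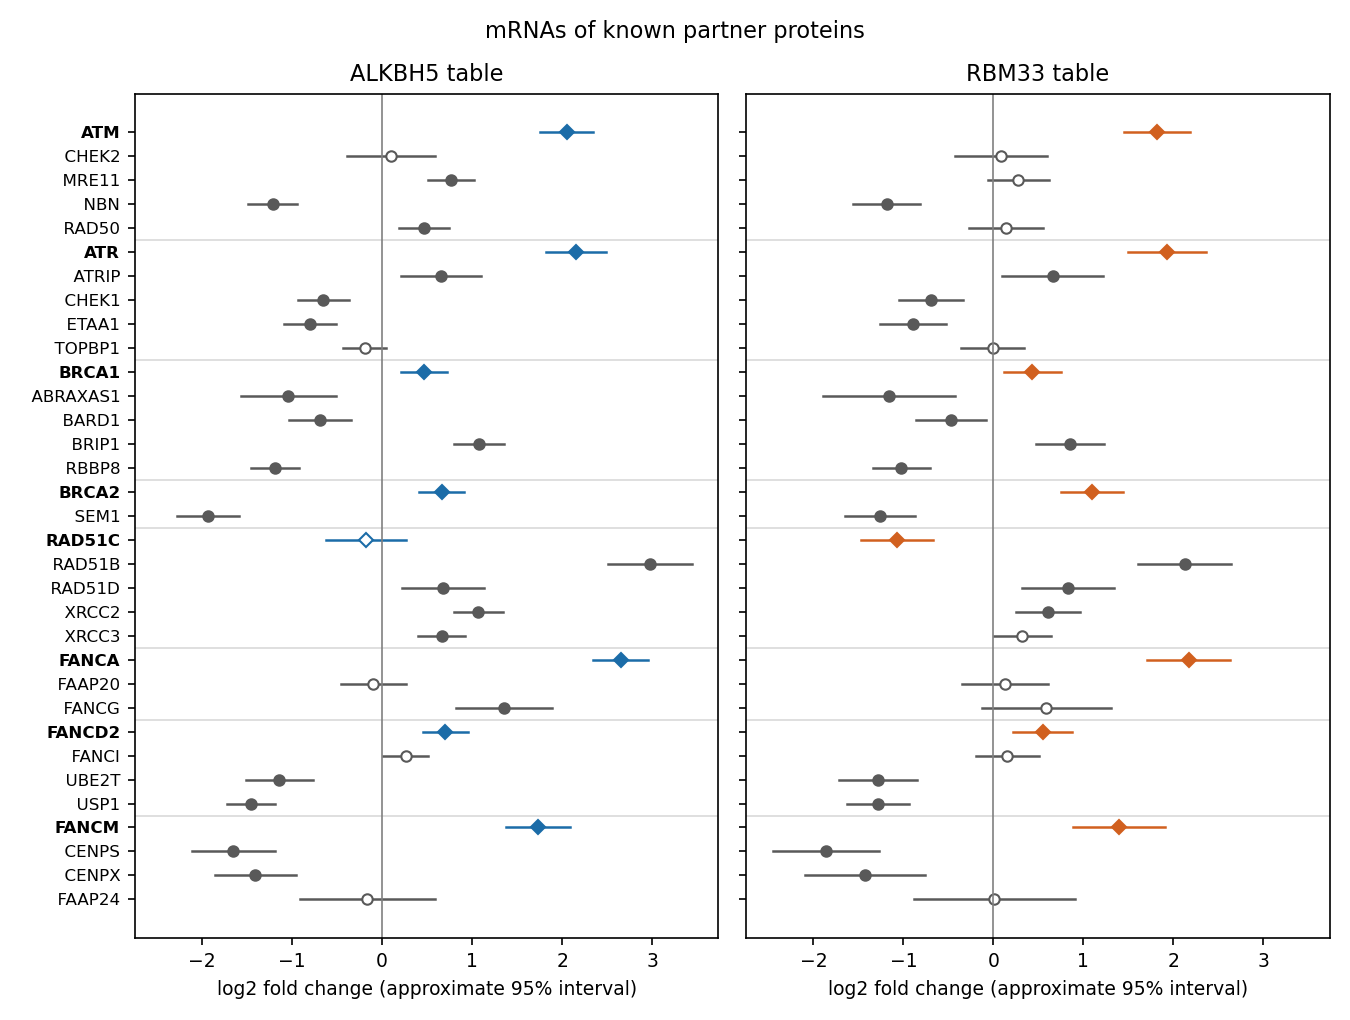
Log2 fold change (horizontal axis, lines are approximate 95% intervals) of 8 of the 9 mRNAs (coloured diamonds) and, under each, the mRNAs of its known partner proteins (grey circles), in the authors' deposited ALKBH5 (left) and RBM33 (right) tables; open symbols were not called at an adjusted p of 0.05. ATR, BRCA1, FANCD2 and FANCM are positive above partners with mostly negative values. BRCA2 is positive above SEM1, its only partner shown, which is negative, and RAD51C lies below its paralogs.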

How the data were processed

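Per the submitters' processing notes, reads were processed with edgeR 3.24.3, featureCounts of Subread 1.6.4, HISAT2 2.1.0 and cutadapt 1.18 on build hg38; the annotation release, strand setting, low-count filter and contrast are not stated in the sources used here. Per the labels' protocols, libraries were stranded total RNA from fragmented RNA. Per the file headers, the authors' deposited values are an F statistic (a score without fixed range) with its p-value and adjusted p-value, an average log2 CPM, a log2 fold change and a listed gene length. Recomputing the Benjamini-Hochberg adjustment over 16324 genes gave the deposited values.

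Groups were taken from sample titles. A gene was called at an adjusted p under 0.05. An approximate standard error was the size of the log2 fold change divided by the square root of F. Degrees of freedom solved from F and p were 13.2 (ALKBH5) and 11.2 (RBM33) for all 9 members and gave the 95% intervals. Simulated data checked only the arithmetic of these steps. Whether the intervals hold for the deposited values was not tested, as the tables give no values for single libraries. These intervals are not adjusted for multiple testing. Of 153 genes in the 8 repair lists, 152 had a row; some genes of these lists enter the counts but are not reported here by name. Genes named are the 9 members, the most positive and most negative called gene of each list and table, genes overlapping a member and the 3 protein-coding genes closest to the median member; partner and marker genes were added after values were seen. Members and lists were chosen with earlier results of these data known. The alternatives were a threshold of 0.01, a minimum of 1 log2 unit, genes of at least median abundance, Bonferroni adjustment, other centring, the mean, and members without overlapping genes. Python 3.11.15, pandas 2.3.3, NumPy 2.4.6, SciPy 1.17.1 and matplotlib 3.10.9 were used. The planned count model could not be run, since the tables hold comparisons. No sequence is shown, because no transcript or genome sequence was among the sources used here.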

Additional observations from a re-analysis of the deposited data

How the results depend on the processing

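Of the 9 mRNAs, 7 were called in the authors' deposited ALKBH5 table and 8 in that for RBM33. A minimum of 1 log2 unit left 4 calls for ALKBH5, and Bonferroni adjustment over all genes left 4 for ALKBH5 and 3 for RBM33. The 6 mRNAs without an overlapping gene held 4 calls for ALKBH5 and 5 for RBM33, as fewer were counted. Of the 152 other repair genes, 109 were called for ALKBH5 and 89 for RBM33. These counts became 58 and 46 with a minimum of 1 log2 unit, and 30 and 9 under Bonferroni adjustment. The median of the 9, at 0.70 for ALKBH5 and 1.10 for RBM33, became 0.52 and 0.56 relative to the length class. The mean gave 1.14 for ALKBH5 and 0.95 for RBM33, and the 6 mRNAs without an overlapping gene had a median of 0.82 for RBM33. A median was taken to have moved when it changed by more than the median approximate standard error of the 9, 0.14 for ALKBH5 and 0.17 for RBM33. By this rule the RBM33 value had not moved with the mean, although the order of the tables was reversed. The other 9 count comparisons for the 9 mRNAs and the pooled lists stayed within 1.5 times, but at median abundance or above the pooled ALKBH5 calls were 45 positive and 50 negative. For the 8 separate lists, 31 count comparisons moved by over 1.5 times and 33 did not: at 1 log2 unit the checkpoint list held 3 positive and 0 negative for ALKBH5, and at adjusted p under 0.01 base excision repair held 6 calls for RBM33. No paired analysis was possible because the tables give no values for single libraries, and for the same reason no replicate could be left out. Library depth is unknown, and the 2 RBM33 libraries per arm limit precision.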

Other observations

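The protein-coding genes closest to the median of the 9 mRNAs in the plane of both fold changes were DACT3, MAP6D1 and ANKRD7, at distances of 0.024, 0.027 and 0.029 log2 units over 2 comparisons. None of the 3 was called in either of the authors' deposited tables, where the adjusted p-values ran from 0.192 (DACT3, ALKBH5) to 0.519 (MAP6D1, ALKBH5). All 3 had low average abundance, at 1.34, 0.50 and 0.53 log2 CPM for ALKBH5 and 0.96, 0.16 and 0.76 for RBM33. The lowest averages of the 9 mRNAs were 4.90 and 5.08. Their intervals were wide, such as -1.18 to 2.54 for MAP6D1 and ALKBH5, so these genes are not like the 9 in precision.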
